A study of Drosophila melanogaster with 42 samples.

Results

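The gap and pair-rule genes are the zygotic transcription factor genes that divide the early fly embryo into segments, and 10 of them were followed here: the gap genes hb, Kr, kni, gt and tll and the pair-rule genes h, odd, eve, ftz and prd. They were taken by name from a RefSeq table of the Release 6 assembly, the assembly that the UCSC browser calls dm6, which holds 13842 protein-coding genes on the X and on both arms of chromosomes 2 and 3. All 10 were found, h under its newer symbol hry. Of the 10, 9 are autosomal and 1, gt, is X-linked. Their contrast was the 3 nearest protein-coding genes on each side of each of them, 60 neighbouring genes in all.

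The study profiled chromatin of Drosophila melanogaster embryos by sequencing of immunoprecipitated DNA (ChIP-seq), in 26 immunoprecipitated and 16 input samples. Embryos were collected at 3-4 h (stages 5 to 8 in the protocol) and at 11-12 h (stages 13 to 15), and the sources used here give neither strain nor sex. MSL2, MOF and H4K16ac were each profiled in 3 samples per stage on chromatin cut with micrococcal nuclease (MNase). H3K36me3 was profiled in 2 samples per stage on sheared (sonicated) chromatin, and so was H4K16ac a further time. The files are 12 lists of regions, 1 for each signal at each stage, where MSL2 has 1 list from fragments of mononucleosome size and 1 from shorter, subnucleosomal ones. Each list is named for all replicates of its group together, and it holds no score or read count, so a percent of a gene covered has no replicate error, the depth is unknown, and no test between the stages could be made. A gene outside every region of a list was not called there, which is not a measurement that the mark was absent. Marker genes of the tissue could not be checked, since region lists hold no expression values. More MNase was used at 11-12 h, 2.9 units per g of embryos against 0.9, so in the MNase lists the effect of stage and that of digestion cannot be told apart.

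Gap genes answer maternal gradients with broad bands of expression, and pair-rule genes read the gap proteins and form stripes in alternate segment primordia. Their transcription peaks around cellularisation and gastrulation, and several are used again later in small groups of cells, such as neuroblasts. H3K36me3 is laid down behind elongating RNA polymerase II and marks the bodies of transcribed genes. H4K16ac is made by the acetyltransferase MOF, which acts on the male X chromosome within the dosage compensation complex that contains MSL2.

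H3K36me3 lay over 4 of the 10 segmentation genes at 3-4 h, hb, Kr, h and odd, and over none of them at 11-12 h. The other 6, kni, gt, tll, eve, ftz and prd, lay outside every region of all 12 lists, as did 28 of the 60 neighbours, 40.6% of all protein-coding genes and 43.6% of autosomal ones. Of the 12 lists, 11 held no region over any of the 10 genes, so 4 of 120 pairs of gene and list showed an overlap of at least 1 bp. Over all protein-coding genes, 51.2% were overlapped by H3K36me3 at 3-4 h and 52.1% at 11-12 h, and over the autosomal ones 50.8% and 51.5%. Genes overlapped at 3-4 h only made up 2.11% of all protein-coding genes (292 genes), against 4 of the 10 segmentation genes. Among genes overlapped at 3-4 h at all, 4.12% were no longer listed at 11-12 h, against 4 of 4 segmentation genes and 1 of 29 neighbouring genes. No segmentation gene was overlapped at 11-12 h only, a class that held 2.99% of all protein-coding genes and 2.84% of autosomal ones.

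**Figure D1:**
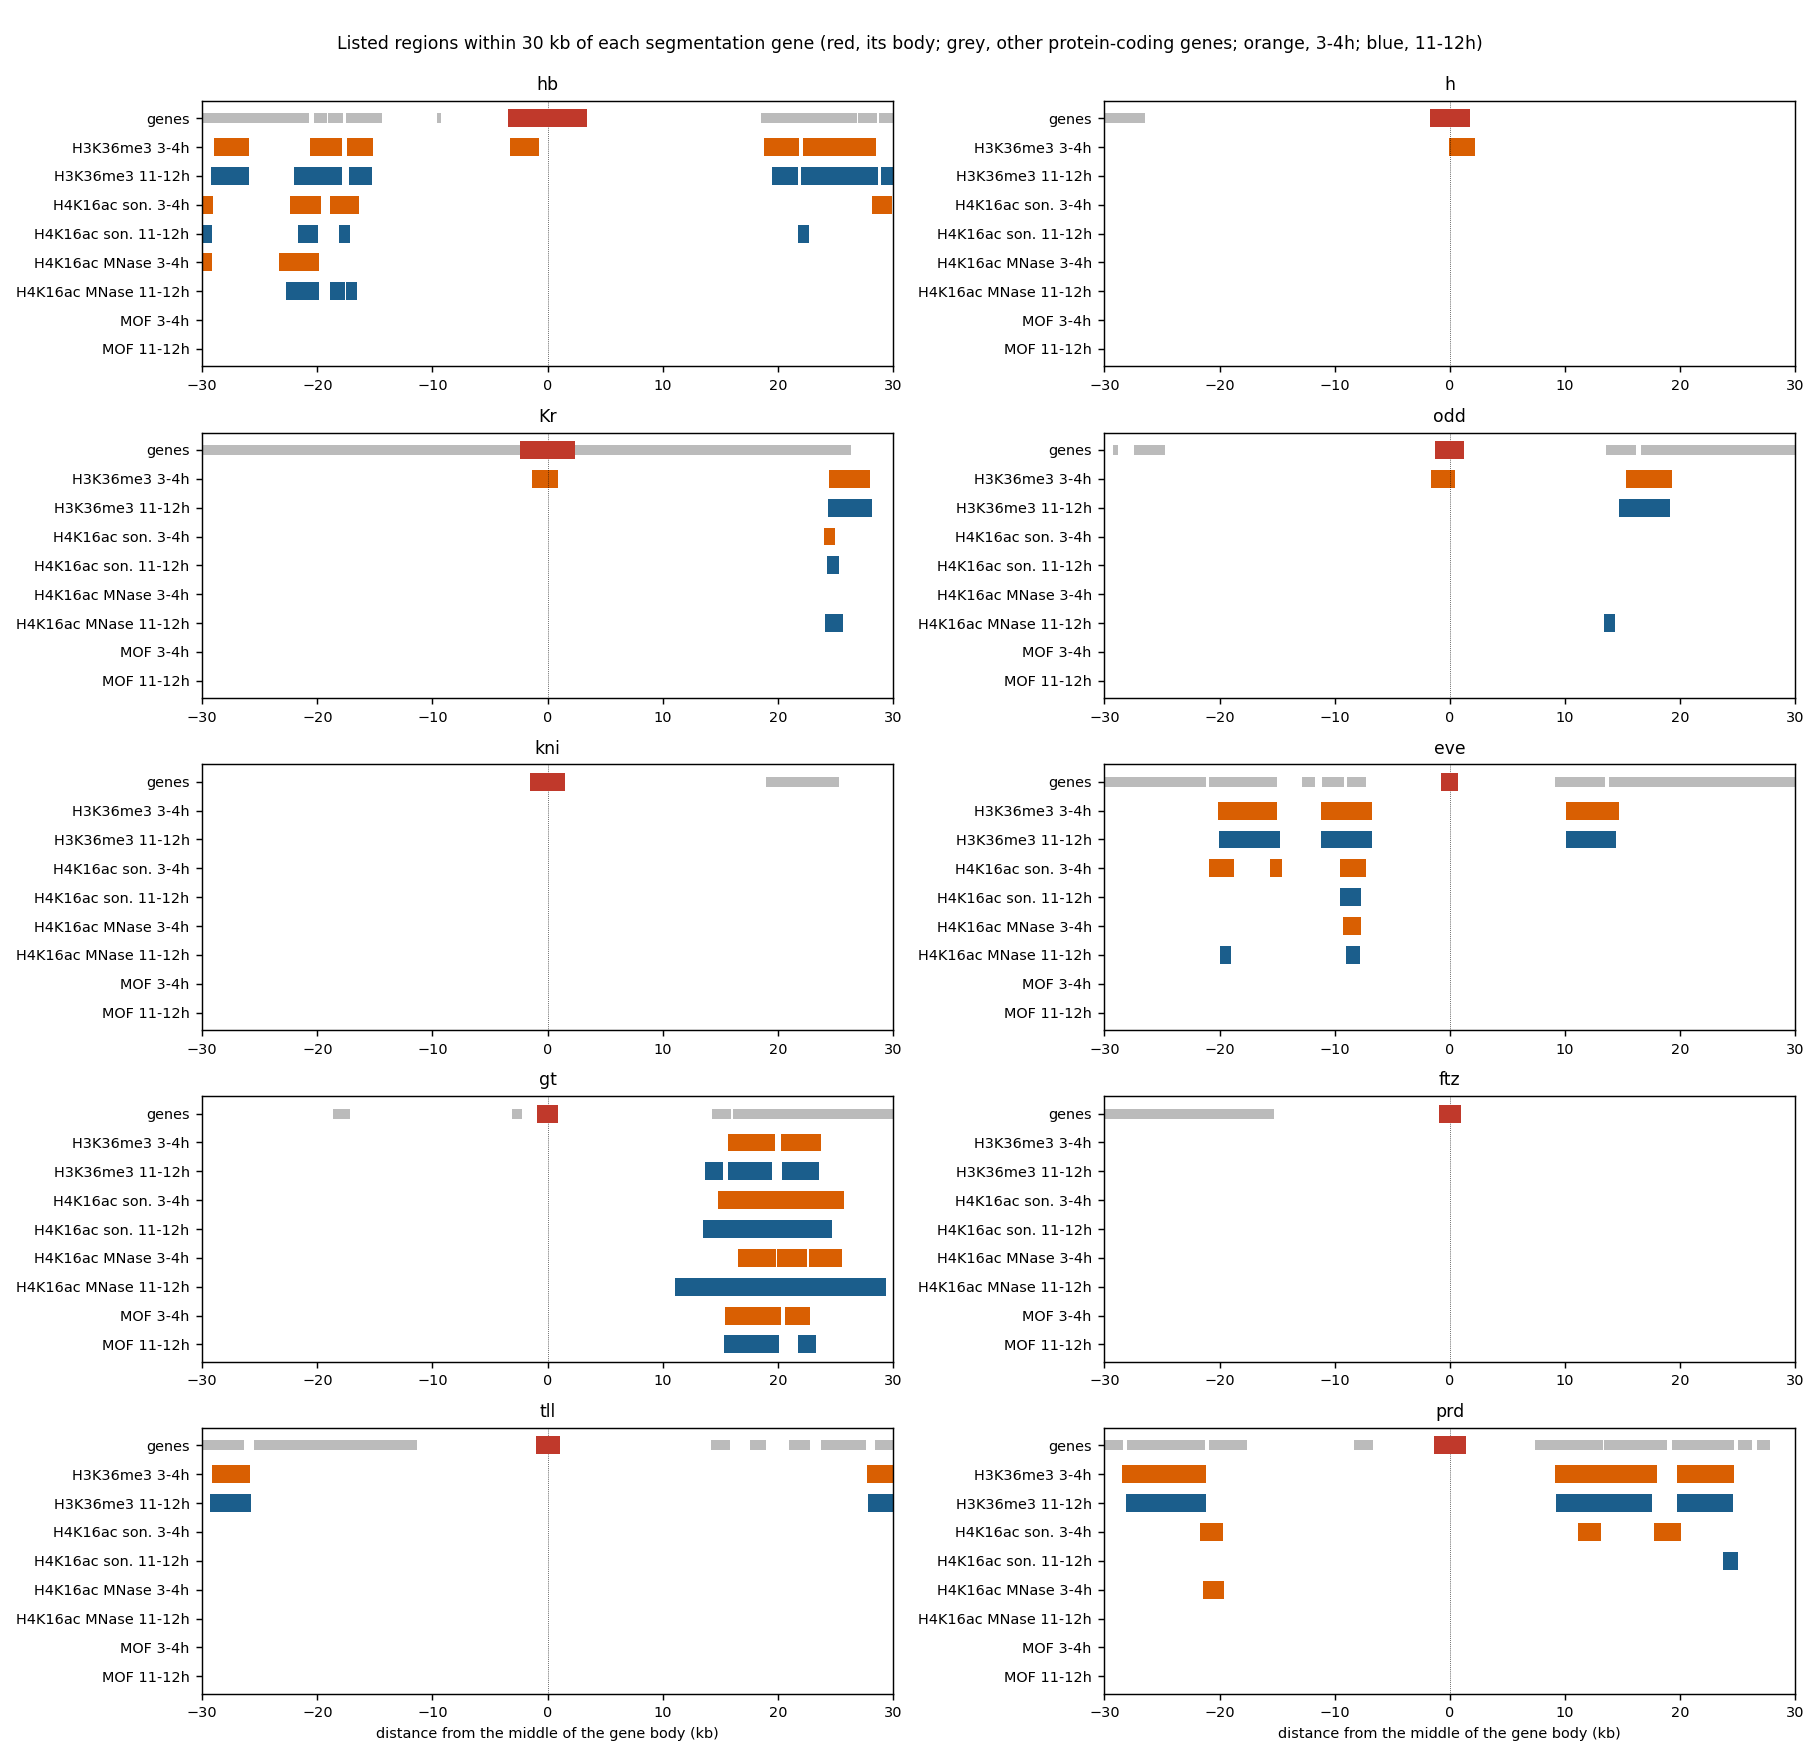
Listed H3K36me3, H4K16ac and MOF regions within 30 kb of each segmentation gene, by distance from the middle of its body in kb, with the body in red, other protein-coding genes in grey, regions of 3-4 h in orange and of 11-12 h in blue. Orange H3K36me3 bars lie over hb, Kr, h and odd with no blue bar beneath them, and no bar of either stage lies over the other 6 genes.

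The 4 regions were narrower than the median of their list, and none lay closer than 11.9 kb to another H3K36me3 region of 3-4 h. The spacing of all regions of that list was not computed. At hb (CG9786, 3R 8690980 to 8697822), which encodes a zinc-finger factor of the anterior embryo and is also supplied maternally, a region of 2.57 kb (3R 8691104 to 8693671) covered 37.5% of the body at 3-4 h and 0% was covered at 11-12 h. It began 124 bp inside the lower-coordinate end of the gene and left the other 4151 bp free. The gene table used gives no strand, so which of these ends holds the promoter is not stated here.

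Kr (CG3340, 2R 25226611 to 25231394), which encodes a zinc-finger factor of the central embryo, had a region of 2.22 kb (2R 25227669 to 25229891) over 46.5% of its body at 3-4 h and 0% at 11-12 h. The region lay wholly inside the gene, 1058 bp from its lower end and 1503 bp from its upper end. Kr itself lies within the body of CG9380, and the regions have no strand, so the mark cannot be assigned to Kr alone. CG9380 went from 5.67% to 2.77% covered, and the H3K36me3 region nearest to Kr at 11-12 h lay 21.9 kb away, at the far end of CG9380.

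Among the pair-rule genes, h (CG6494, 3L 8675759 to 8679253), a basic helix-loop-helix repressor, had a region of 2.26 kb (3L 8677431 to 8679690) that covered 52.2% of the body at 3-4 h, with 0% covered at 11-12 h. That region ran 437 bp past the upper-coordinate end of the gene. The most fully covered of the 10 was odd (CG3851, 2L 3604224 to 3606756), a zinc-finger repressor, with 66.3% of its body under a region of 2.01 kb (2L 3603891 to 3605902) at 3-4 h and 0% at 11-12 h. Its region ran 333 bp past the lower end and left 854 bp of the upper end free. Each of the 4 regions thus covered part of a gene and not the whole.

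The nearest other H3K36me3 regions of 3-4 h were 11.9 and 19.6 kb away on the 2 sides of the hb region, 131 and 23.6 kb from that of Kr, 43.5 and 38.8 kb from that of h, and 73.2 and 14.9 kb from that of odd. In width the 4 regions ranked low in their list: 22.6% of regions were no wider than the one at hb, 14.2% than the one at h, 12.7% than the one at Kr and 10.0% than the one at odd, where the median was 3.91 kb. Regions of 3-4 h that met no region of 11-12 h numbered 168 of 3715 (4.52%), with a median width of 1.84 kb, and on the autosomes 134 of 3003, the 4 over segmentation genes among them. When only the widest 50% of each list was kept, the count of segmentation genes with H3K36me3 at 3-4 h went from 4 to 0, and the share of all protein-coding genes from 51.2% to 32.8%. Genes listed at 3-4 h only then made up 4.58% of all protein-coding genes in place of 2.11%. The count was 2 (h and odd) when at least 50% of the body had to be covered, a rule met by 37.4% of all protein-coding genes at 3-4 h.

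Averaged over the 10 genes, 20.2% of the body was under H3K36me3 at 3-4 h and 0% at 11-12 h. The same mean was 32.0% and 31.1% over the neighbouring genes, and 37.0% and 37.1% over all protein-coding genes. The median segmentation gene was at 0% at both stages, as was the median neighbour, against 2.61% and 4.96% for the median of all genes.

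**Figure D2:**
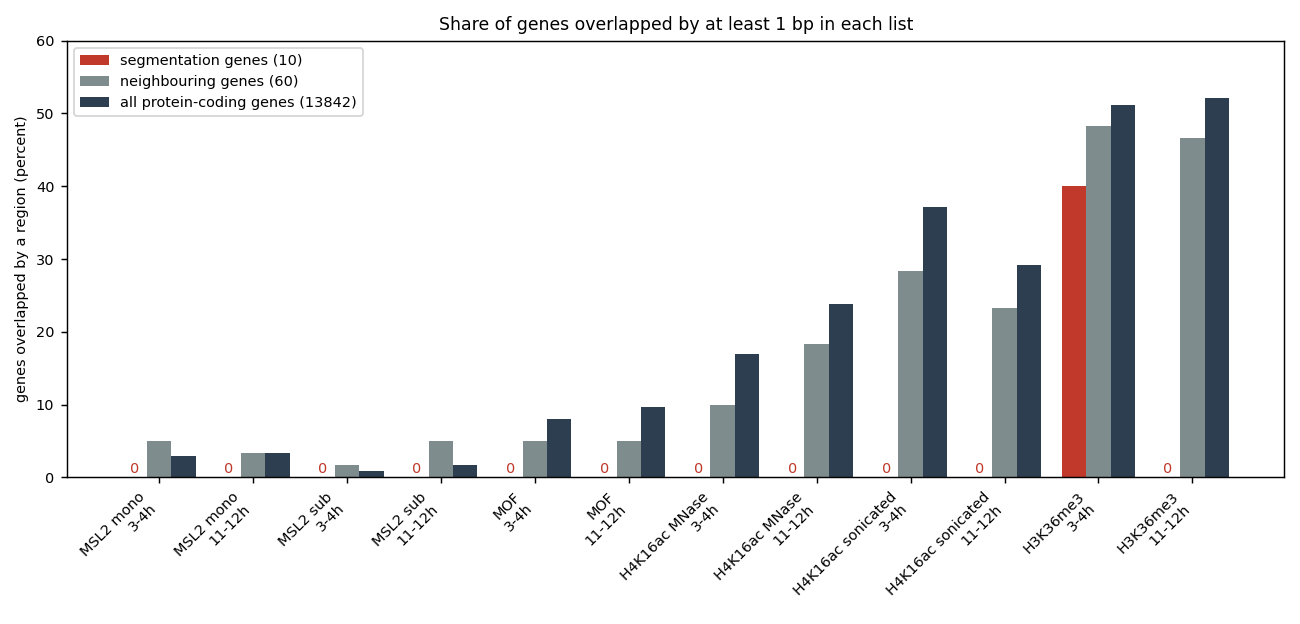
Percent of genes overlapped by at least 1 bp in each of the 12 lists, as bars for the 10 segmentation genes, the 60 neighbouring genes and all 13842 protein-coding genes. The only bar of the segmentation genes above 0 is that of H3K36me3 at 3-4 h, where 4 of 10 were overlapped beside 48.3% of neighbours and 51.2% of all genes.

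Of the 6 neighbours of each marked gene, 5 had H3K36me3 at both stages at hb, 2 at Kr, 3 at h and 3 at odd. Among all protein-coding genes, 49.1% had it at both. Next to hb, Cks85A, a regulatory subunit of cyclin-dependent kinases whose body starts 15.1 kb away, was covered over 89.2% of its body at 3-4 h and 76.8% at 11-12 h. CG44227, the neighbour on the other side at 5.80 kb, was at 0% at both stages. TMEM216 (94.6% and 96.0%), CG11755 (98.4% and 87.6%) and CG8112 (87.2% and 59.6%) were covered at both. Beside h, SrpRbeta, a subunit of the signal recognition particle receptor, was at 100% at both stages, and CG32022 (100% and 95.9%) and CG6511 (100% and 97.5%) were nearly so. Pex7, the peroxisomal import receptor on the other side of h at 24.7 kb, was at 0% in all 12 lists. Arr2 and CG13305 on that side were at 0% in all lists as well.

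At odd, the neighbour Ugt36A1, a UDP-glycosyltransferase, went from 30.0% to 56.5% under H3K36me3 while odd went from 66.3% to 0%. CG15418 was at 100% at both stages, and the gene named for was at 7.68% and 7.22%. The neighbour on the other side, sob, and the third gene on that side, drm, are paralogs of odd that encode related zinc-finger proteins, and both lay outside all 12 lists. At Kr, the neighbour CG30429 was at 0% in every list, and CG30428, 20.5 kb away, was at 40.5% and 46.1% for H3K36me3.

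Of the 60 neighbours, 28 had H3K36me3 early and late, 1 had it at 3-4 h alone and 0 at 11-12 h alone. The single early one was Ama, an immunoglobulin-domain protein gene 99.1 kb from ftz, which went from 57.7% to 0%. Counted together, 29 and then 28 of 60 neighbours were overlapped (48.3% and 46.7%), close to the background of all genes.

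**Figure D3:**
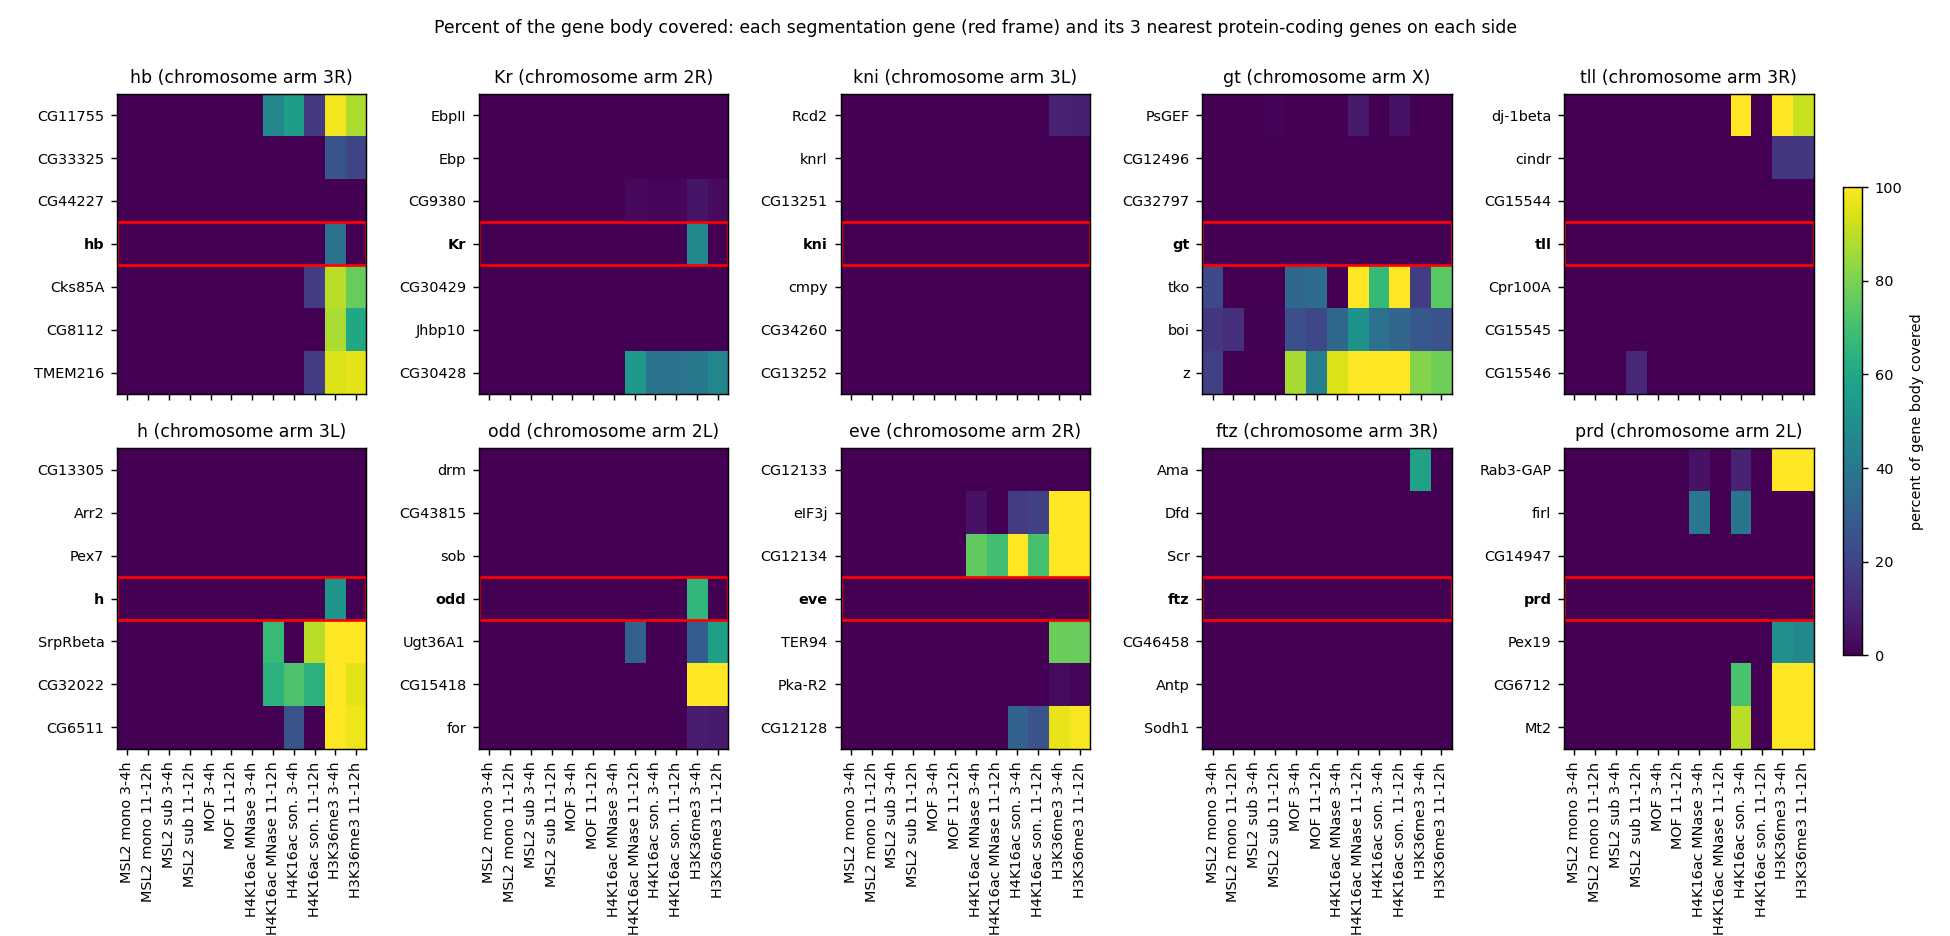
Percent of the gene body covered, on a colour scale from 0 to 100, for each segmentation gene (red frame) and its 3 nearest protein-coding genes on each side (rows, in chromosome order) in the 12 lists (columns). The framed rows are dark except for H3K36me3 at 3-4 h at hb, Kr, h and odd, whereas rows such as SrpRbeta, CG12134 and Mt2 are bright for H3K36me3 at both stages.

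The 6 genes in no list differed in how close the nearest H3K36me3 lay. For eve (CG2328, 2R 9979319 to 9980795), a homeodomain repressor with the shortest body of the 10 (1.48 kb), the nearest region was 5.99 kb away at 3-4 h and 6.01 kb at 11-12 h, over eIF3j, a translation initiation factor gene, and CG12134, both covered over 100% at both stages. TER94, the gene of the AAA ATPase p97 on the other side at 8.36 kb, was covered over 77.6% and 76.7%, and CG12128 over 96.5% and 99.2%. Pka-R2 was at 2.82% and 1.94%, and CG12133 was at 0% in all lists. The eve body thus lay in a gap between genes that carried the mark at both stages.

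A like arrangement was seen at prd (CG6716, 2L 12082995 to 12085827), which encodes a factor with a paired domain and a homeodomain. Its nearest H3K36me3 region lay 7.70 kb away at 3-4 h and 7.84 kb at 11-12 h. Pex19, a peroxisome biogenesis gene 5.99 kb from prd, was covered over 50.3% and 46.1%. CG6712, Rab3-GAP and Mt2, an RNA methyltransferase, were at 100% at both stages, while CG14947, the neighbour on the other side, was at 0% in all lists. For H3K36me3, firl was at 0% at both stages.

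The X-linked member gt (CG7952, X 2427113 to 2428967), a leucine-zipper factor, had its nearest H3K36me3 14.7 kb away at 3-4 h and 12.8 kb at 11-12 h. For tll (CG1378, 3R 30852315 to 30854400), an orphan nuclear receptor of both embryonic ends, the distance was 24.8 and 24.7 kb, to a region over the adaptor protein gene cindr. Its immediate neighbours CG15544 and Cpr100A, a cuticle protein gene, lay outside every list.

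Farthest from the mark were ftz and kni. For ftz (CG2047, 3R 6864324 to 6866244), a homeodomain factor within the Antennapedia complex, the nearest H3K36me3 was 53.6 kb away at 3-4 h and 53.8 kb at 11-12 h, in a region between protein-coding genes. The homeotic genes around it, Scr, Antp and Dfd, lay outside all lists, and so did CG46458, which shares its lower end with Antp. For kni (CG4717, 3L 20692330 to 20695378), a zinc-finger factor of the nuclear receptor type, the distance was 72.3 and 72.2 kb. Its immediate neighbours CG13251 and cmpy and its paralog knrl lay outside every list, and of its 6 neighbours only Rcd2 had H3K36me3, over 10.0% and 8.98% of its body. In each of these 6 genes the distance to H3K36me3 differed by less than 2 kb between the stages, whereas for hb, Kr, h and odd it went from 0 to 11.8, 21.9, 38.9 and 13.4 kb.

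H4K16ac lay over none of the 10 genes at either stage and on either kind of chromatin. On sonicated chromatin 37.1% of all protein-coding genes and 32.9% of autosomal ones were overlapped at 3-4 h, and 29.2% and 21.9% at 11-12 h. On MNase chromatin the shares were 17.0% and 9.01% at 3-4 h and 23.8% and 14.2% at 11-12 h. Of the 60 neighbours, 17 and then 14 had sonicated H4K16ac and 6 and then 11 had MNase H4K16ac. Neighbours with the sonicated mark at 3-4 h only numbered 7, and 4 had it at 11-12 h only, classes that held 11.4% and 3.47% of all protein-coding genes and 13.4% and 2.34% of autosomal ones. With MNase these were 3 and 8 neighbours, against 2.69% and 9.49% of all genes and 3.19% and 8.37% of autosomal ones. The 4 genes with early H3K36me3 therefore had it in the absence of a listed H4K16ac region. How many of all genes had early H3K36me3 without H4K16ac was not computed. A narrower class, H3K36me3 at 3-4 h and no overlap in any of the other 11 lists, also excludes H3K36me3 at 11-12 h, MOF and MSL2. It held 182 of all protein-coding genes (1.31%) and 179 of the autosomal ones (1.54%), where 292 genes (2.11%) had H3K36me3 at 3-4 h only.

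Acetylation near the segmentation genes changed at some neighbours, at a share near that of autosomal genes. Of the 17 neighbours with sonicated H4K16ac at 3-4 h, 7 were not listed at 11-12 h. The same held for 30.6% of all protein-coding genes with the mark at 3-4 h and for 40.7% of autosomal ones. At prd, 4 of the 6 neighbours had sonicated H4K16ac at 3-4 h and 0 at 11-12 h: Mt2 went from 89.6% to 0%, CG6712 from 71.2% to 0%, firl from 38.7% to 0% and Rab3-GAP from 9.53% to 0%. The distance from prd to the nearest sonicated region went from 9.73 to 22.3 kb, and on MNase chromatin from 18.2 to 39.9 kb. Of these 4 neighbours, 2 also had MNase H4K16ac at 3-4 h, firl over 39.4% of its body and Rab3-GAP over 4.98%, and neither had it at 11-12 h. Near tll, dj-1beta, a homolog of the Parkinson's disease gene DJ-1, went from 100% to 0% in the sonicated lists, and the nearest region from 43.8 to 206 kb. At kni the nearest H4K16ac stayed between 73.2 and 73.9 kb away in all 4 H4K16ac lists, and at ftz it was between 201 and 213 kb.

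At other members acetylation was listed nearer at 11-12 h, mostly in the MNase lists. The nearest MNase H4K16ac region went from 567 to 12.1 kb at odd, where Ugt36A1 went from 0% to 30.5% covered, from 278 to 21.7 kb at Kr, where CG30428 went from 0% to 54.0%, and from 152 to 40.1 kb at h, where SrpRbeta went from 0% to 67.7%. On sonicated chromatin these 3 distances hardly moved, at 88.4 and 88.3 kb for odd, 21.6 and 21.9 kb for Kr and 41.3 and 39.8 kb for h. SrpRbeta itself also went from 0% to 89.1% on sonicated chromatin, where CG32022 beside it was covered at both stages (72.1% and 64.2%). For hb the distances were 12.9 and 13.7 kb on sonicated and 16.5 and 13.1 kb on MNase chromatin. The closest H4K16ac to any member lay by eve, at 6.50 and 7.01 kb on sonicated and 6.94 and 7.03 kb on MNase chromatin, over CG12134, which was 100% and 70.9% covered in the sonicated lists and 75.5% and 69.8% in the MNase lists. The difference in distance between the preparations at odd, Kr and h was not tested, and the amount of MNase changed with stage.

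**Figure D4:**
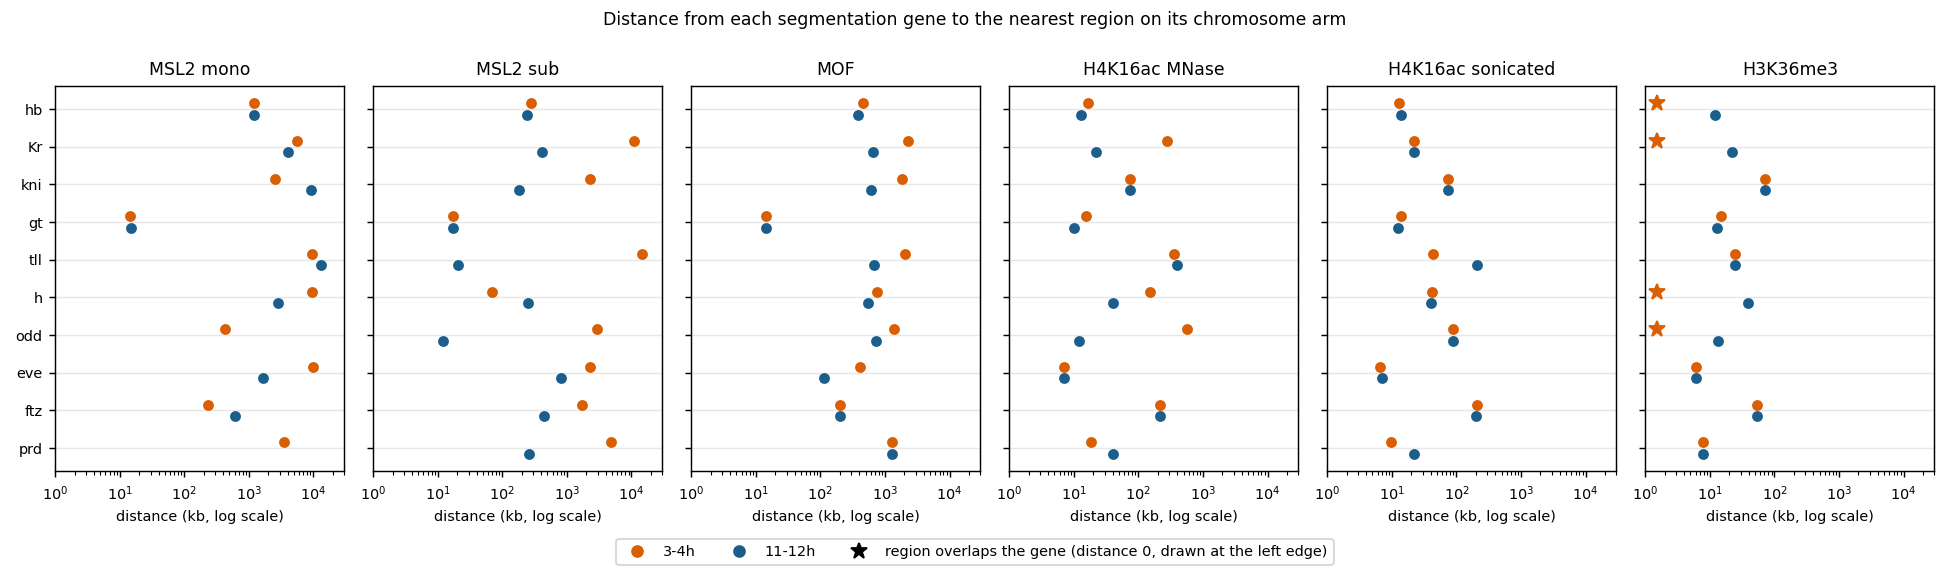
Distance in kb (log scale) from each segmentation gene (rows) to the nearest region on its chromosome arm in each pair of lists (panels), with orange points for 3-4 h and blue points for 11-12 h. Stars at the left edge mark overlap, seen for H3K36me3 at 3-4 h at hb, Kr, h and odd, and in the MSL2 and MOF panels gt lies within 17.2 kb of a region at both stages, which no other gene does.

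MSL2 and MOF regions lay over none of the 10 genes. MOF overlapped 8.03% of all protein-coding genes at 3-4 h and 9.70% at 11-12 h, but 0.395% and 1.22% of the autosomal ones, so 9 of the 10 segmentation genes are on arms where MOF regions met few genes. MSL2 mononucleosomal regions overlapped 2.87% and 3.33% of all genes (0.0515% and 0.0687% of autosomal ones), and subnucleosomal peaks 0.838% and 1.71% (0.0429% and 0.756%). The X held 116 of the 130 subnucleosomal peaks of 3-4 h on these arms, but only 167 of the 295 of 11-12 h. From the autosomal members the distance to MSL2 mononucleosomal regions at 11-12 h reached 13.2 Mb, at tll, and for odd and prd the list had no region on the arm. The closest autosomal approach was a subnucleosomal peak of 11-12 h at 12.0 kb from odd, with another at 20.5 kb from tll, over CG15546.

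The X-linked gt lay within 17.2 kb of listed MSL2 and MOF regions but under none of them. That is nearer than the autosomal members at both stages, but distances were not compared with those of other X-linked genes. Of all X-linked protein-coding genes, MOF overlapped 48.5% at 3-4 h and 54.7% at 11-12 h, MSL2 mononucleosomal regions 17.8% and 20.6%, and subnucleosomal peaks 5.05% and 6.78%. From gt, MOF was 14.4 kb away at both stages, MSL2 mononucleosomal regions 14.6 and 15.1 kb, and subnucleosomal peaks 17.2 kb at both. These nearest regions lay on the upper-coordinate side of gt, over or beside tko, which encodes a mitochondrial ribosomal protein, boi, a Hedgehog co-receptor gene, and z, a DNA-binding factor gene known as zeste. MOF covered 86.9% and 42.9% of z, 33.8% and 35.5% of tko and 24.3% and 21.5% of boi.

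The acetylated stretch on that side came nearer to gt on MNase chromatin, from 15.6 kb at 3-4 h to 10.1 kb at 11-12 h, as tko went from 0% to 100% covered. On sonicated chromatin it lay 13.9 and then 12.6 kb from gt, with tko at 66.9% and 100%. H4K16ac overlapped 59.1% and 74.5% of X-linked genes in the MNase lists and 59.2% and 68.1% in the sonicated ones, and H3K36me3 overlapped 53.8% and 55.5%. H3K36me3 over tko went from 18.2% to 74.6%. On the other side of gt, CG32797, only 1.26 kb away, was outside all 12 lists, and PsGEF, the third gene on that side at 39.4 kb, had at 11-12 h H4K16ac over 7.35% (MNase) and 4.87% (sonicated) and a subnucleosomal peak over 0.974%. With 1 X-linked gene among the 10, no comparison between X-linked members could be made.

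Further genes of the segmentation hierarchy were counted from 5 lists of 36 genes, chosen like the 10 genes with earlier results of these data known. Over the 36, 11 had H3K36me3 at 3-4 h and 10 at 11-12 h, where 51.2% and 52.1% of all protein-coding genes did. It was listed at 3-4 h only for 2 of the 36 and at 11-12 h only for 1, against 2.11% and 2.99% of all genes. In all, 23 of the 36 lay outside all 12 lists, against 40.6% of all genes. Of the 3 other pair-rule genes, opa, a zinc-finger gene, had the pattern of the 4 marked genes, with H3K36me3 over 9.70% of its body at 3-4 h, 0% at 11-12 h and no other overlap, while run and slp2 were in no list. Of 7 head gap and terminal genes, 6 were in no list, and cnc, a leucine-zipper gene, had H3K36me3 over 4.10% of its body at 11-12 h only. All 8 homeotic genes were outside every list.

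Of the 8 maternal coordinate genes, 3 had H3K36me3 at both stages, where 49.1% of all protein-coding genes did, and none at 1 stage only. Among them fs(1)N, an X-linked gene of the terminal system, had no H3K36me3 but was covered by H4K16ac at 11-12 h only, over 40.4% on MNase and 18.4% on sonicated chromatin. Segment polarity genes, which act after the pair-rule genes, had H3K36me3 in 7 of 10 cases at 3-4 h and 6 at 11-12 h, beside the 51.2% and 52.1% of all genes. In this group hh, the ligand gene of the Hedgehog pathway, had only traces at 3-4 h, 0.335% of its body for sonicated H4K16ac and 0.0801% for H3K36me3. The X-linked arm, the fly beta-catenin, was covered by MSL2 mononucleosomal regions over 21.6% and 50.6%, with a subnucleosomal peak at 11-12 h only. These counts were not tested against the 10 genes.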

How the data were processed

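ChIP-seq regions of 12 lists were used, 1 per antibody, chromatin preparation and stage, except that MSL2 has a mononucleosomal and a subnucleosomal list per stage. Samples were grouped by their titles. The deposited values are starts and ends of regions on dm6, and no other score or depth. Per the submitters' processing notes, Bowtie2 2.2.9, SAMtools and HOMER were used. How regions were called, and against which input, is not stated in the sources used here. Per the labels, 1 list stands for all 2 or 3 replicates of a group (how they were combined is not stated), so precision and depth per sample are unknown.

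Genes came from the RefSeq table of Release 6. Chromosome 4 was left out of the background, but ci, which lies on it, is among the segment polarity genes. A gene counts as overlapped from 1 bp. Percent covered is covered bases over body length, and distance is the gap to the nearest region on the arm. Neighbours are the 3 nearest protein-coding genes on each side. Named were all 10 genes, their immediate neighbours, up to 3 others per gene covered by at least 50% in a list that lacks the gene, and up to 3 genes per further list, those at 1 stage only in most lists; others were named after their values were seen. The genes and lists were chosen with earlier results of these data known. No tests were run. Promoters and motifs were not examined here. Covered bases and gaps matched a base-by-base count in 20 of 20 simulations. Alternatives were at least 50% of the body, 1 kb added, the widest 50% of each list, joining within 1 kb, and 5 or 1 neighbours per side. Python 3.11.15, numpy 2.4.6, pandas 2.3.3 and matplotlib 3.10.9 were used.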

Additional observations from a re-analysis of the deposited data

How the results depend on the processing

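The 10 genes were absent from the other 11 lists under each alternative run (at least 50% of the body, 1 kb added to genes, joining of regions within 1 kb, and keeping the widest 50% of each list). That outcome was fixed in advance and is no support. The first and last of these can only remove overlaps. The nearest region of the 11 lists lay 6.01 kb from a gene (eve, H3K36me3 at 11-12 h), out of reach of 1 kb. The median of 0% over the 10 genes in every list was likewise bound to hold under the last 3 alternatives, the ones it was computed for. The 4 genes with H3K36me3 at 3-4 h, all 4 at 3-4 h only, became 2 when at least 50% of the body was required and 0 in the widest 50% of each list, where narrow regions are left out by construction. Adding 1 kb or joining regions left 4, as it had to, since the nearest other gene, eve, lay 5.99 kb from a region of 3-4 h. Genes with H3K36me3 at 3-4 h only went from 292 to 634 of all protein-coding genes in the widest 50%. The 95% Wilson interval of a share of neighbours covers counting error only. It treats the 60 neighbours as independent, although adjacent ones can share a region, and served only as a rule for calling a share moved. The percent of neighbours overlapped left this interval of its reported value in 24 of 72 cases. With at least 50% of the body it was 0% in the 4 MSL2 lists and for MOF at 11-12 h, 1.67% for MOF at 3-4 h, 3.33% for MNase H4K16ac at 3-4 h, 13.3% and 8.33% for sonicated H4K16ac at the 2 stages, and 31.7% for H3K36me3 at both. In the widest 50% it was 0% for MSL2 mononucleosomal regions at 11-12 h and MOF at 3-4 h, 1.67% for subnucleosomal peaks at 11-12 h, 3.33% and 5.00% for MNase and 11.7% and 5.00% for sonicated H4K16ac, and 26.7% and 31.7% for H3K36me3. With 1 neighbour per side it was 0% for MSL2 mononucleosomal regions at 11-12 h and for subnucleosomal peaks at both stages, and 15.0% for sonicated H4K16ac at 3-4 h. Within the interval, 4 further shares differed by over 1.5 times: MNase H4K16ac went from 10.0% to 5.00% at 3-4 h with 1 neighbour per side and from 18.3% to 11.7% at 11-12 h with at least 50% of the body, and subnucleosomal peaks from 1.67% to 1.02% and from 5.00% to 3.06% at the 2 stages with 5 neighbours per side. The percent covered of single segmentation genes moved in 8 of 360 cases, and distances moved in 50 of 210 cases, all in the widest 50%, an alternative added for distances after the data were seen. No paired analysis was possible because 1 list stands for all replicates of a group, so neither a replicate block nor lists without each replicate in turn could be computed. Depth is unknown, so a gene missing from a list may lie below the calling limit.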

Other observations

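Of the 182 protein-coding genes with H3K36me3 at 3-4 h and no overlap in the other 11 lists, several besides hb, Kr, h, odd and opa are known for roles in the early embryo, and they were picked out after their values were seen. The T-box genes Doc3 and Doc1 of the dorsal embryo had 52.5% and 32.7% of their bodies covered at 3-4 h. For dpn, a helix-loop-helix gene of neuroblasts, the value was 49.4%. The adhesion gene trn, a pair-rule target, had 63.3%, and upd1, a JAK/STAT ligand gene on the X, had 47.1%. In bowl, an odd paralog elsewhere on 2L, 12.3% was covered, while sob and drm next to odd had none. The GATA factor genes srp and pnr had 12.1% and 9.58%, and shg, the fly E-cadherin, 23.7%. The 182 also hold genes of other kinds, such as the splicing factor gene SmD3 (62.6%) and dib, a gene of ecdysone synthesis (78.1%), and no test was made of what they share.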
